A study of Rattus norvegicus with 20 samples.

Results

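The genes described here are the structural genes of motile cilia that carry a family symbol: protein coding genes of the deposited table whose symbol begins with Cfap (cilia and flagella associated proteins), Dnah (dynein axonemal heavy chains), Dnai (dynein axonemal intermediate chains) or Rsph (radial spoke heads). The rule also named Foxj1, which was not analysed here. It found 30 genes of the 30443 listed, namely 13 Cfap, 9 Dnah, 2 Dnai and 6 Rsph genes, after 2 lower entries of repeated symbols were set aside. The symbols were chosen by name, with earlier results of these data known. Within the rule a level was used only to keep the higher entry of a repeated symbol. RNA-seq was performed on 5 regions of each of 4 adult female wild-type Long-Evans rats, an outbred strain, aged about 6 to 8 months. All 4 animals received a hemicontusion at cervical level 4 and, 2 weeks later, an electrode array in the motor cortex opposite to the injury. In the 2 stimulated animals the cortex was then stimulated at 10 Hz for 5 hours a day over 1 week, at 80% of movement threshold, and the 2 control animals were handled alike with a sham device. Region 1 was subcortical white matter under the implant, region 2 the matching white matter of the other hemisphere, and regions 3, 4 and 5 were spinal cord above, at and below the lesion. There was no uninjured animal, so every value is from injured rats, and each region had 2 libraries per group.

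Motile cilia beat because dynein arms slide the paired microtubules of the axoneme against each other. Outer arms give force and inner arms shape the bend, while radial spokes and the central pair time the arms and proteins inside the microtubule walls hold the structure together. In the nervous system, motile cilia are carried above all by ependymal cells, which line the brain ventricles and the central canal of the spinal cord and move cerebrospinal fluid. Many of these genes are also used in sperm, and a few, such as Cfap20, serve in cilia and centrioles of many cell types.

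The libraries were first compared with marker genes of the cell types such blocks can hold. The summed level of 13 ependymal markers was 49.4 to 142 FPKM in white matter and 130.2 to 199 FPKM in the cord, ranges that overlapped. Nnat, Cd24 and Rarres2, with means of 71.7, 25.6 and 23.3 FPKM over all libraries, made up most of these sums. The sums therefore say little of the other markers. FPKM counts sequenced fragments scaled by transcript length and by the mapped total of the library, so levels of different genes are comparable per length. Of the 8 ependymal markers that passed the filter described below, 7 were lower in white matter and 1 was not called, where 47.1% of all genes tested were lower. Tmem212, Ccdc153 and Mlf1 reached 1 FPKM in the cord only, so the filter favoured a lower call, and the count is a description. Under the filter, Ccdc180 had a higher mean in white matter (0.172 against 0.135 FPKM), and Mia, Cdhr3 and Ccdc146 had a lower one. Tmem212, an ependymal membrane protein, did not exceed 0.143 FPKM in white matter and lay between 0.558 and 2.05 FPKM in the cord, and Sntn was listed at 0.1 FPKM, the lowest value of the table, in every library. The tissue labels met a difficulty of another kind. The 4 cortical projection neuron markers summed to 256 to 375 FPKM in the libraries labelled white matter and to 1.41 to 14.5 FPKM in the cord, and the 6 oligodendrocyte markers, myelin genes, summed to 708 to 2943 FPKM in the former and 7403 to 10779 FPKM in the latter. The name white matter is used below as the labels give it. Striatal neuron markers summed to 119 FPKM in the region 1 library of stimulated animal 1 and to 29.0 to 40.6 FPKM in the other libraries of that region. Microglia and macrophage markers summed to 448 and 485 FPKM in the region 1 and region 2 libraries of stimulated animal 2 and to 55.1 to 278 FPKM in the other 6 white matter libraries. These samples are pieces of tissue, in which fewer cells of a type and less RNA per cell cannot be told apart.

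Most of these genes were weakly expressed. Only 15 of the 30 reached 1 FPKM in any library, the minimum for the main tests, and these were 8 Cfap, 3 Dnah, 4 Rsph and 0 Dnai genes. The 15 others were Cfap46, Cfap53, Cfap57, Cfap74, Cfap221, Dnah1, Dnah2, Dnah3, Dnah6, Dnah8, Dnah17, Dnai1, Dnai2, Rsph4a and Rsph6a. Cfap221, Dnah8 and Rsph4a were listed at 0.1 FPKM in all 20 libraries and have no measured level. The spinal cord libraries each had 26 of the 30 genes above 0.1 FPKM, whereas the white matter libraries had 19 to 22 in region 1 and 17 to 19 in region 2. Within each family 1 gene led. Cfap20, a protein of the junction between the paired microtubules, was by far the highest with a mean of 14.8 ± 2.09 FPKM (SD, n = 20 libraries). Among heavy chains Dnah5, of the outer arm, led with 1.53 ± 0.93 FPKM. Rsph9, of the spoke head, had 2.37 ± 0.308 FPKM and Dnai1, an outer arm intermediate chain, 0.516 ± 0.201 FPKM. Because Cfap20 made up so much of the total, the summed level of all 30 genes overlapped between the tissues, at 31.0 to 37.3 FPKM in white matter and 33.3 to 41.5 FPKM in cord. Without Cfap20 the sums were 17.2 to 19.8 FPKM and 21.9 to 26.1 FPKM, which did not overlap.

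**Figure D1:**
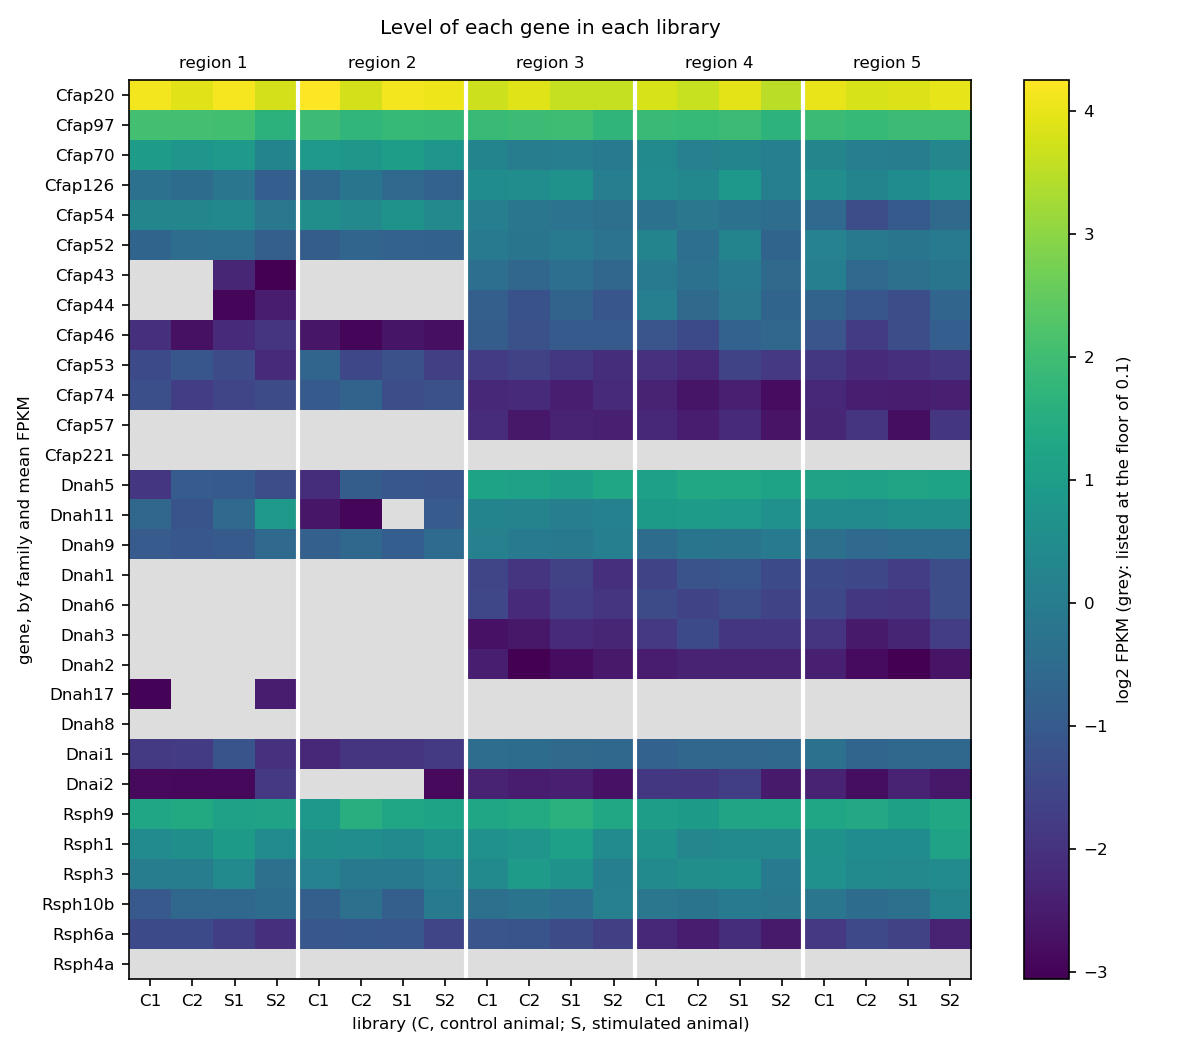
Level of the 30 genes (rows, by family and mean) in the 20 libraries (columns, by region and animal) as log2 FPKM, with grey for values listed at 0.1. White matter libraries (regions 1 and 2) are grey for 8 or more genes and the cord libraries for 4.

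Setting white matter against the cord asks which of these genes follow the tissue. Of the 15 genes tested, 9 were lower in white matter, 3 were higher and 3 were not called by limma, at an adjusted p under 0.05. In the same fit 47.1% of all 15210 genes were lower and 25.0% higher in white matter, so a call alone sets these genes little apart. Genes that passed the filter only through their level in the cord had to differ, and the count is given as a description. The median log2 fold change (white matter over cord) of the 15 genes was -0.43 and that of all genes tested -0.18. Under quantile normalization the median of all genes was -0.04 and the split of calls over all genes 5054 higher and 6018 lower, against 3808 and 7169.

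Among the heavy chains tested, all 3 were lower in white matter, and Dnah5 alone did so without overlap. Dnah5 and Dnah9 reached 1 FPKM in the cord only, so the filter favoured this direction and the count is a description. Dnah5 (ENSRNOG00000048363) had 0.265 and 0.523 FPKM in the control and 0.507 and 0.407 FPKM in the stimulated animals in region 1. In region 2 its values were 0.233 and 0.530 FPKM in the controls and 0.471 and 0.457 FPKM in the stimulated animals. All 12 cord libraries were far above these, between 2.04 and 2.48 FPKM with a median of 2.27 FPKM. The 3 cord regions were alike, with means of 2.21 ± 0.126, 2.32 ± 0.183 and 2.25 ± 0.0529 FPKM (SD, n = 4 each). Dnah5 was 5.54-fold higher in cord (log2 fold change of white matter over cord -2.47, SE 0.14, adjusted p = 1.24e-11, limma). Dnah9, also of the outer arm, had a median of 0.553 FPKM in white matter and 0.856 FPKM in cord, with ranges of 0.476 to 0.702 and 0.679 to 1.08 FPKM that overlapped (log2 fold change -0.57, SE 0.10, adjusted p = 3.69e-05, limma). Dnah11 (ENSRNOG00000005451), a further outer arm chain, was between 1.04 and 1.99 FPKM in the cord and between 0.1 and 1.86 FPKM in white matter, where stimulated animal 2 stood apart as described below. Its log2 fold change was -1.93 (SE 0.26, adjusted p = 2.32e-06, limma), and -2.41 without stimulated animal 2.

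The inner arm heavy chains Dnah1, Dnah2, Dnah3 and Dnah6 were listed at 0.1 FPKM in all 8 white matter libraries and were above it in all 12 cord libraries. Dnah1 had 0.240 to 0.461 FPKM in the cord and Dnah6 0.223 to 0.402 FPKM. Set against the lowest value of the table, their cord means were at least 3.50-fold and at least 3.23-fold higher, and those of Dnah3 and Dnah2 at least 2.38-fold and at least 1.66-fold higher. These levels are low, and since the table keeps no read numbers it cannot be said how many fragments lie behind them. The intermediate chain Dnai1 went the same way, with 0.209 to 0.444 FPKM in white matter and 0.592 to 0.786 FPKM in cord. Its partner Dnai2 had a white matter range of 0.1 to 0.276 FPKM, which overlapped with 0.145 to 0.307 FPKM in the cord.

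Among the Cfap genes tested, the log2 fold change of white matter over cord ran from -2.82 to 0.81. Cfap43 (ENSRNOG00000036585) and Cfap44 (ENSRNOG00000028077), a pair of axonemal proteins that tether an inner dynein arm, were listed at 0.1 FPKM in all 4 libraries of region 2 and both control libraries of region 1. Cfap43 reached 0.207 and 0.120 FPKM in the stimulated animals in region 1 and lay between 0.641 and 1.06 FPKM in the cord, without overlap (log2 fold change -2.82, SE 0.16, adjusted p = 8.36e-12, limma). Cfap44 had 0.128 and 0.180 FPKM in the same stimulated libraries and 0.406 to 1.06 FPKM in the cord, again without overlap (log2 fold change -2.42, SE 0.17, adjusted p = 2.49e-10, limma). Because their white matter values are mostly at the lowest value of the table, these fold changes depend on where that value was set. Cfap126 (ENSRNOG00000034221), known as Flattop and involved in the placing of basal bodies, had 0.546 to 0.872 FPKM in white matter with a median of 0.699, and 1.05 to 1.78 FPKM in cord with a median of 1.40. The groups did not overlap, and it was 1.95-fold higher in cord (log2 fold change -0.96, SE 0.12, adjusted p = 1.00e-06, limma). Cfap52, which lies inside the microtubule wall, was 1.48-fold higher in cord with overlapping ranges of 0.533 to 0.753 and 0.607 to 1.19 FPKM (adjusted p = 0.000545, limma). It too reached 1 FPKM in the cord only. Cfap57, an inner arm assembly protein, was listed at 0.1 FPKM throughout white matter and had 0.146 to 0.265 FPKM in the cord.

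3 Cfap genes were called in the opposite direction. Cfap54 (ENSRNOG00000029837), of the central apparatus, had 0.904 to 1.61 FPKM in white matter with a median of 1.29, and 0.398 to 1.05 FPKM in cord with a median of 0.780. Stimulated animal 2 in region 1 gave the lowest white matter value and the only one below the highest cord value, and Cfap54 was 1.75-fold higher in white matter (log2 fold change 0.81, SE 0.11, adjusted p = 3.71e-06, limma). Cfap70 (ENSRNOG00000007046), which attaches to outer dynein arms, had 1.17 to 2.04 FPKM in white matter and 0.982 to 1.32 FPKM in cord. Here too the same library of stimulated animal 2 was the lone overlap, and the gene was 1.56-fold higher in white matter (log2 fold change 0.64, SE 0.09, adjusted p = 6.24e-06, limma). Cfap20 (ENSRNOG00000042179) differed little, with 13.6 to 19.0 FPKM against 11.2 to 16.0 FPKM (log2 fold change 0.24, SE 0.07, adjusted p = 0.00680, limma), and was not called without control animal 1 (adjusted p = 0.0637, limma). Cfap74, of the central apparatus, was under the filter, but all 8 white matter libraries, at 0.299 to 0.605 FPKM, were above all 12 cord libraries, at 0.142 to 0.224 FPKM.

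The radial spoke genes differed least. Rsph9 had 1.79 to 2.92 FPKM in white matter and 1.89 to 3.06 FPKM in cord, with medians of 2.32 and 2.38 FPKM (log2 fold change -0.03, SE 0.08, adjusted p = 0.759, limma). Rsph1, likewise of the spoke head, had 1.33 to 1.90 and 1.24 to 2.24 FPKM (log2 fold change -0.05, SE 0.11, adjusted p = 0.688, limma). Both signs turned under quantile normalization and upper-quartile scaling, where neither gene was called. Rsph3 (ENSRNOG00000018762), of the spoke stalk, had medians of 1.03 FPKM in white matter and 1.37 FPKM in cord with overlapping ranges, and was 1.35-fold higher in cord (log2 fold change -0.43, SE 0.12, adjusted p = 0.00425, limma). Rsph10b, of the spoke head, was 1.33-fold higher in cord with adjusted p = 0.00922 (limma). Under quantile normalization Rsph3, Rsph10b and Cfap52 were no longer called (adjusted p = 0.189, 0.405 and 0.133, limma), and without control animal 2 Rsph3 had an adjusted p of 0.0508. Rsph10b was also not called without control animal 1 or without stimulated animal 1 (adjusted p = 0.103 and 0.0502, limma). Cfap97, the other gene that was not called, had medians of 3.69 and 3.74 FPKM.

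**Figure D2:**
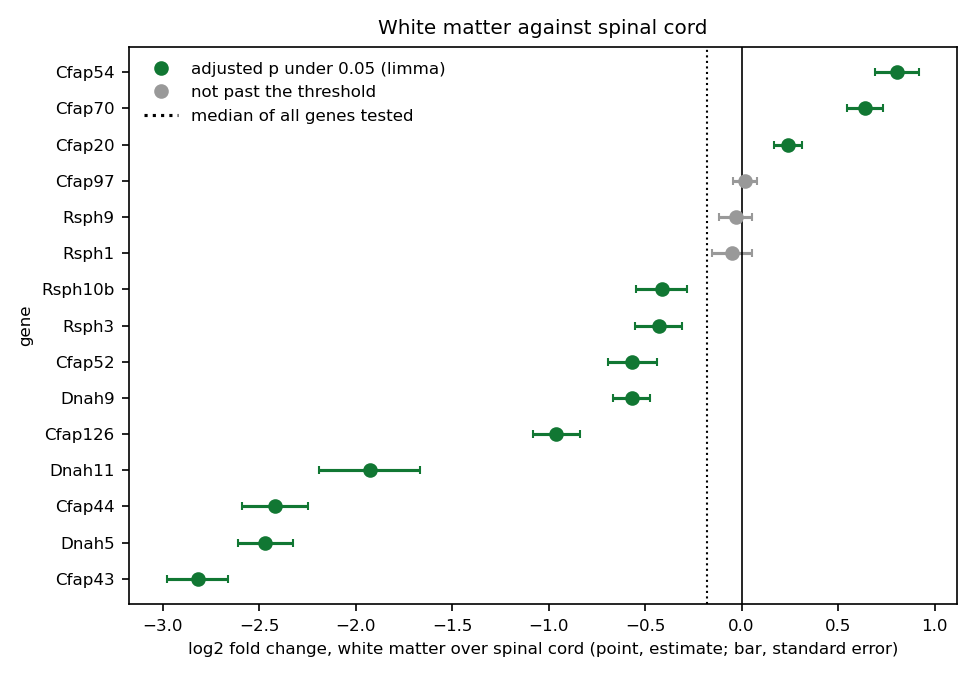
Log2 fold change of white matter over spinal cord with its standard error (horizontal axis) for the 15 genes tested (vertical axis), in green where the limma adjusted p was under 0.05. Values run from -2.82 for Cfap43 to 0.81 for Cfap54, and the dotted line is the median of all genes at -0.18.

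In all, 4 of the 15 tested genes had white matter values entirely under the cord values, namely Dnah5, Cfap43, Cfap44 and Cfap126, while 16.8% of all genes tested did so. These 4 genes reached 1 FPKM in cord libraries only, so the filter itself favoured this direction and the count is a description. No tested gene had white matter values entirely above the cord, which 10.3% of all genes did. When all 30 genes were fitted with no filter, limma called 17 lower and 6 higher in white matter, against 26.0% and 14.9% of the 30443 genes of the table. Genes listed at 0.1 FPKM in every library cannot be called. They were 3 of the 30 genes here, and their share of all genes is not given, so these shares are no like comparison. The genes added were Cfap46, Cfap57, Dnah1, Dnah2, Dnah3, Dnah6, Dnai1 and Dnai2 on the lower side and Cfap53, Cfap74 and Rsph6a on the higher side. Heavy and intermediate chains were on the lower side in all 9 cases called, of 11 genes. Dnah1, Dnah2, Dnah3 and Dnah6 among them were listed at 0.1 FPKM in every white matter library. Only a lower call was possible for these genes, and the count is a description.

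**Figure D3:**
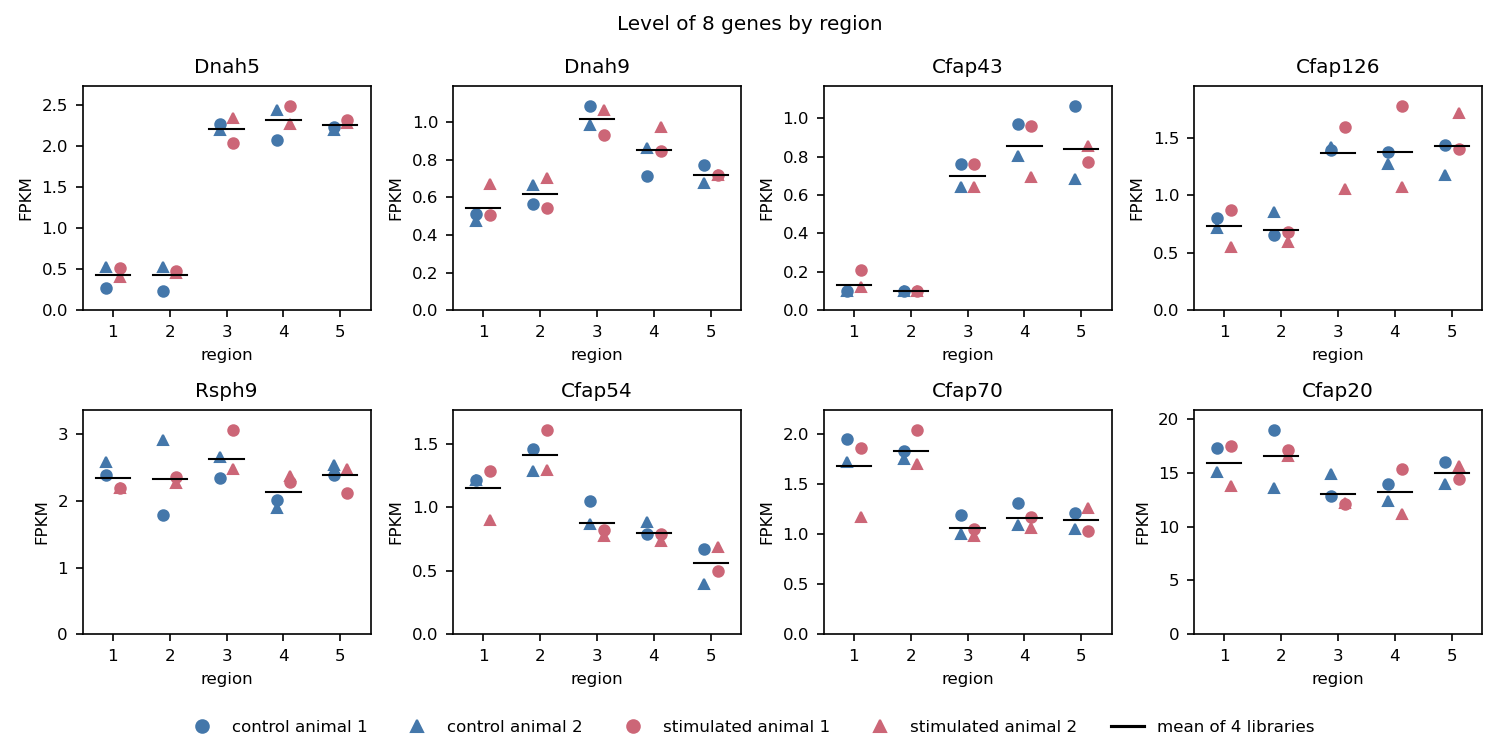
FPKM (vertical axes, from 0) of 8 genes in regions 1 to 5 (horizontal axes), with circles and triangles for the first and the second animal of each group, blue for control and red for stimulated, and a line at the mean of 4 libraries. Dnah5, Dnah9, Cfap43 and Cfap126 are higher in the cord, Cfap54, Cfap70 and Cfap20 in white matter, and Rsph9 is at like levels.

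Promoters of these genes are shown because they are known targets of RFX and forkhead factors, so the letters those factors bind can be looked for beside the levels. RefSeq windows on GRCr8, from 250 bases before to 50 bases after the start of transcription, matched 25 of the 30 genes. The RFX X-box, a near palindrome of a pair of half-sites, was found on Dnah2 alone, 1 of 25 genes (4%), and in 1.42% of all genes with a window. The half-site GTTGCC, on either strand and counted also within an X-box, was in 7 of 25 (28%) and in 13.1% of all genes, and the forkhead core GTAAACA in 2 of 25 (8%) and in 4.12%. A gene counted if any of its windows matched. Genes with several windows, such as Dnah11 and Cfap43, had more chances of a match, which the shares do not allow for. The stretches below are from 6 genes, of which Cfap20 and Cfap74 were at higher levels in white matter and the others in the cord. Capitals mark the X-box of Dnah2, the forkhead core of Cfap43 and the half-site of the rest, and bases after the start of transcription are left out.
Dnah2, chr10:54766028-54766101 (-): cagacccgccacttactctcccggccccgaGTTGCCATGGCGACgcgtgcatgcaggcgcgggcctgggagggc
Cfap43, chr1:256653692-256653758 (-): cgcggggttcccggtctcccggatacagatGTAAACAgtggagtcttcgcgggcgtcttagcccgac
Cfap44, chr11:69789906-69789944 (-): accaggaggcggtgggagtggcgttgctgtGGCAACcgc
Dnah11, chr6:145213734-145213799 (-): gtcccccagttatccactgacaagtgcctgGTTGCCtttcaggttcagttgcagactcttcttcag
Cfap74, chr5:171261146-171261185 (+): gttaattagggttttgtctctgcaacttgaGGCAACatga
Cfap20, chr19:9614797-9614862 (+): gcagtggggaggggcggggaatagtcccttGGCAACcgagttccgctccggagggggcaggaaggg
The Dnah2 site begins 45 bases before the start of transcription and the Cfap43 forkhead core 44 bases before 1 of several listed starts. Dnah11 also has several listed starts, and its stretch is from a start inside the gene. At its outermost start the only half-site lies after the start of transcription. Genes of both directions carried a half-site, and Dnah5 is not among them. The forkhead core was found in both directions too, as Cfap20 carried it 240 bases before the start, outside the stretch printed. A match is a description of letters and was not tested for binding.

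Other genes of the ciliary apparatus were read from lists of their roles, and each count below stands beside 47.1% of all genes tested that were lower and 25.0% that were higher in white matter. Some reached 1 FPKM in 1 tissue only, such as Rfx2, Plk4 and Tekt4 in the cord and Dlx1 in white matter. The filter favoured that tissue, and the counts are descriptions. Among regulators of the ciliary programme, 4 of 10 listed genes in the table passed the filter, with 3 lower and 1 higher in white matter. Rfx4, an RFX factor of ependymal and neural progenitor cells, had 1.52 to 3.07 FPKM in white matter and 3.70 to 5.90 FPKM in cord. Rfx3, also an RFX factor of ciliated cells, was reversed, with 3.94 to 5.34 and 2.03 to 3.23 FPKM (log2 fold change 0.80, adjusted p = 5.23e-09, limma). Of genes that assemble or dock the dynein arms, 8 of 18 passed, 6 of them lower and 2 higher in white matter. Dnaaf5, an assembly factor, had 1.36 to 1.98 FPKM in white matter and 2.26 to 3.39 FPKM in cord, whereas Dnal1, a light chain of the outer arm, had 12.8 to 22.5 and 8.88 to 12.9 FPKM. Of nexin link, ruler and central pair genes, 9 of 18 passed, with 4 lower, 4 higher and 1 not called. The 4 higher genes were Ccdc39, Ccdc65, Gas8 and Tcte1, of the ruler and the nexin link. The 4 lower genes were Drc1, likewise of the nexin link, and Hydin, Spef1 and Stk36. Ccdc65 had 2.76 to 4.33 FPKM in white matter and 2.29 to 3.78 FPKM in cord, and Tcte1, of the same complex, 10.0 to 20.4 and 6.12 to 11.3 FPKM.

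Of proteins inside the paired microtubules and tektins, 11 passed the filter, with 7 lower in white matter, 2 higher and 2 not called. Tppp3, a tubulin-binding protein of ependyma and other cells, led them with 3.17 to 12.7 FPKM in white matter and 69.5 to 141 FPKM in the cord. Nme7, of the inner proteins, had 5.44 to 7.38 and 5.98 to 8.04 FPKM. Intraflagellar transport and BBSome genes serve primary cilia as well, and all 32 passed the filter. In white matter 14 of these were lower, 6 higher and 12 not called, with a median log2 fold change of -0.08. Kifap3, of the kinesin that carries transport trains outward, had 48.6 to 75.1 FPKM in white matter and 37.5 to 58.5 FPKM in cord. Markers of other cells at fluid surfaces also varied with the tissue. Of the choroid plexus markers 4 were lower and 2 higher in white matter, 6 having passed, and the summed level of the 9 found was 3.27 to 13.1 FPKM in white matter and 6.41 to 13.2 FPKM in cord. Pkd1l2, a channel gene of neurons that contact the cerebrospinal fluid, was listed at 0.1 FPKM in every white matter library and had 0.323 to 1.30 FPKM in the cord. Of 6 ventricular zone neuroblast markers 3 passed the filter and were higher in white matter, and Dlx1 was listed at 0.1 FPKM in every cord library. Sp8 and Igfbpl1, under the filter, had medians of 0.334 and 0.116 FPKM in white matter and 0.466 and 0.299 FPKM in cord. The part of these cells in the levels of ciliary genes was not tested.

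Regions 1 and 2 lie under the implanted and the opposite cortex, and comparing them asks whether the implanted side differs. Of the 15 genes 1 was called, Dnah11, higher in region 1, while 6.86% of all genes tested were higher there and 1.76% lower. It is named although it had under 1 FPKM on average in both regions and so fell outside the rule for named genes. In region 1 it had 0.634 and 0.451 FPKM in the control animals and 0.675 and 1.86 FPKM in the stimulated animals. In region 2 it had 0.162 and 0.128 FPKM in the controls, and in the stimulated animals 0.1 FPKM, the lowest value of the table, and 0.510 FPKM. Region 1 was higher than region 2 in 4 of 4 animals, but the ranges overlapped because stimulated animal 2 was high on both sides (log2 fold change 2.1, SE 0.41, adjusted p = 0.00615, limma). Without that animal the adjusted p was 1.25e-05, and without control animal 1, control animal 2 or stimulated animal 1 it was 0.0826, 0.0659 and 0.158 (limma). On the scale of log2(FPKM + 1) the difference was 0.60, which was also called (adjusted p = 0.0263, limma). Cfap54 had all 4 values of region 1 (0.904 to 1.28 FPKM) under those of region 2 (1.29 to 1.61 FPKM), a lack of overlap seen in 3.16% of all genes tested, and was not called.

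Dnah11 shares 715 bases with Cdca7l, a Myc-interacting transcriptional regulator, on the opposite strand in RefSeq on GRCr8. The labels name a stranded kit, while the methods state default alignment settings and name no strand setting, so reads of the shared stretch cannot be assigned. Cdca7l had 0.403, 0.368, 0.364 and 1.07 FPKM in region 1 (control animals 1 and 2, then stimulated animals 1 and 2) and 0.212, 0.172, 0.1 and 0.728 FPKM in region 2. It was thus highest in stimulated animal 2 in both regions, as Dnah11 was, and it was not called between the regions (log2 fold change 1.11, adjusted p = 0.122, limma). Microglia and macrophage markers had their highest sums of these regions in the same libraries, at 448 and 485 FPKM, and the part of the overlap or of these cells in the Dnah11 values was not tested.

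**Figure D4:**
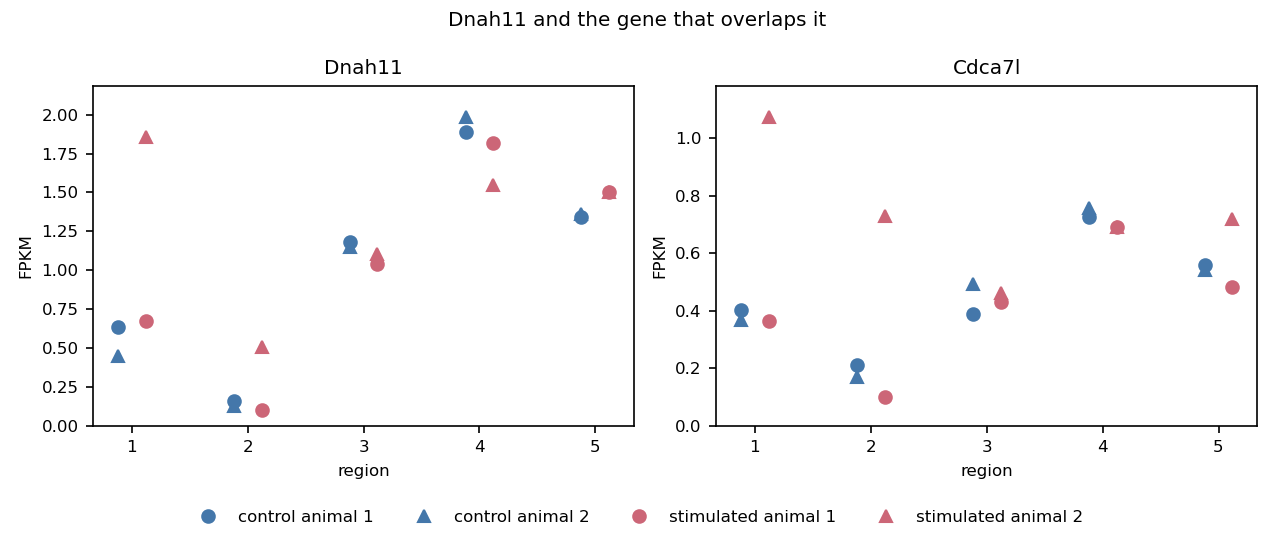
FPKM (vertical axes, from 0) of Dnah11 and of the overlapping gene Cdca7l in regions 1 to 5 (horizontal axes), 1 symbol per library, blue for control and red for stimulated animals. Stimulated animal 2 (red triangles) is the highest white matter library for both genes, at 1.86 and 1.07 FPKM in region 1.

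Within the cord few of these genes were called along its length. Between regions 3 and 4, above and at the lesion, none of the 15 genes was called by limma, 2 had an unadjusted p under 0.05, and 19.6% of all genes tested were called. Cfap44 had 0.559, 0.430, 0.601 and 0.464 FPKM in region 3 and 1.06, 0.697, 0.888 and 0.616 FPKM in region 4, again in the order of control then stimulated animals. Each region 4 value was above each region 3 value, and the log2 fold change was -0.65 (SE 0.27, adjusted p = 0.0924, limma). Dnah11 likewise had all 4 values of region 4 (1.55 to 1.99 FPKM) over those of region 3 (1.04 to 1.18 FPKM), with a log2 fold change of -0.69 (SE 0.41, adjusted p = 0.239, limma). Such lack of overlap, with region 3 entirely under region 4, was seen in 13.0% of all genes tested. With no filter, Rsph6a was called higher in region 3 (0.310 to 0.458 FPKM against 0.171 to 0.233 FPKM) and Dnah1 and Dnah3 lower, all at under 0.5 FPKM. Under that setting 4.98% of genes were called higher and 2.42% lower in region 3, shares that also count genes at the lowest value in every library.

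Regions 4 and 5 gave 0 calls among the 15 genes by limma, 2 with an unadjusted p under 0.05, while 7.99% of all genes tested were called. Cfap54 and Dnah11 had all region 4 values above those of region 5, as 1.84% of all genes tested did. Between regions 3 and 5, above and below the lesion, Cfap54 was the only gene called, higher in region 3, where 1.55% of all genes tested were higher and 2.77% lower. It was named outside the rule, being under 1 FPKM on average in both. It had 1.05 and 0.870 FPKM in the controls and 0.821 and 0.771 FPKM in the stimulated animals in region 3, and 0.670, 0.398, 0.500 and 0.687 FPKM in region 5 in the same order. No value of region 5 reached those of region 3, as in 5.02% of all genes tested, and region 4 lay between with a mean of 0.799 ± 0.0619 FPKM (SD, n = 4). The log2 fold change was 0.66 (SE 0.18, adjusted p = 0.0394, limma), but the call was lost without control animal 1, control animal 2 or stimulated animal 1 (adjusted p = 0.186, 0.192 and 0.195) and with no filter (0.0647). Dnah9 declined in the same order, with means of 1.02 ± 0.0721, 0.851 ± 0.106 and 0.722 ± 0.038 FPKM in regions 3, 4 and 5. Its regions 3 and 5 did not overlap either, and their difference had an adjusted p of 0.0705 (limma). Dnah11 had all values of region 3 under those of region 5, as 20.5% of all genes tested did.

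Stimulation was compared with sham handling within each region. No gene of the 15 was called in any of the 5 regions by limma, and 0 had an unadjusted p under 0.05. Over all genes tested, 0.0% were called in regions 1 to 4 and 0.0197%, or 3 genes, in region 5. Without adjustment, 828, 215, 522, 341 and 546 genes fell under a p of 0.05 in regions 1 to 5. With 2 animals a group a difference of moderate size could not be detected, and these results do not show that the levels were equal.

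In region 1 the 3 genes of at least 1 FPKM with the smallest p were Dnah11, Rsph9 and Cfap97. Dnah11, with the values given above, had a log2 fold change (stimulated over control) of 1.07 (SE 0.59, adjusted p = 0.712, limma), which rested on stimulated animal 2. Rsph9 had 2.40 and 2.59 FPKM in the controls and 2.19 and 2.2 FPKM in the stimulated animals, so the stimulated values were the lower ones, with a log2 fold change of -0.18 (SE 0.17). Cfap97 had 4.14 and 4.18 FPKM in the controls and 4.11 and 3.09 FPKM in the stimulated animals. Cfap44, above 0.1 FPKM in region 1 in the stimulated animals only, had a log2 fold change of 0.60 (SE 0.23, adjusted p = 0.712, limma), and it was called when stimulated animal 1 was left out (log2 fold change 0.85, adjusted p = 0.0107, limma), but both controls were listed at 0.1 FPKM and so had no measured spread, and the call rests on 1 stimulated library at 0.180 FPKM. Of the 15 genes 5 did not overlap between the groups, and 40.6% of all genes tested did not. In region 2 the genes with the smallest p were Cfap20, Cfap54 and Cfap70, with log2 fold changes of 0.07, 0.07 and 0.05 and SEs of 0.20, 0.22 and 0.19. Their groups overlapped, as did those of every tested gene, against 27.0% of all genes that did not.

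In the cord no tested gene was called either. Cfap20 in region 3 had 12.9 and 14.9 FPKM in the controls and 12.1 and 12.3 FPKM in the stimulated animals, without overlap (log2 fold change -0.19, SE 0.09, adjusted p = 0.956, limma, and -0.29 to -0.083 with 1 animal left out). Dnah11 and Rsph3 were next, with log2 fold changes of -0.12 (SE 0.11) and -0.33 (SE 0.31). The value of Rsph3 ran from -0.61 to -0.045 with 1 animal left out, and 3 of the 15 genes did not overlap in region 3, against 29.9% of all genes. At the lesion, in region 4, Rsph9 had 2.01 and 1.89 FPKM in the controls and 2.29 and 2.37 FPKM in the stimulated animals (log2 fold change 0.26, SE 0.16). Dnah11 went the other way there, with 1.89 and 1.99 FPKM and then 1.82 and 1.55 FPKM, and 3 of the 15 genes did not overlap, against 20.2% of all genes. In region 5 Cfap126 had 1.44 and 1.17 FPKM in the controls and 1.40 and 1.72 FPKM in the stimulated animals, with overlap (log2 fold change 0.25, SE 0.20, and 0.11 to 0.40 with 1 animal left out). Dnah11 had 1.34 and 1.36 FPKM against 1.51 and 1.5 FPKM (log2 fold change 0.15, SE 0.14), and Cfap52 a log2 fold change of -0.19 (SE 0.17). Here 3 of the 15 did not overlap, against 24.6% of all genes.

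**Figure D5:**
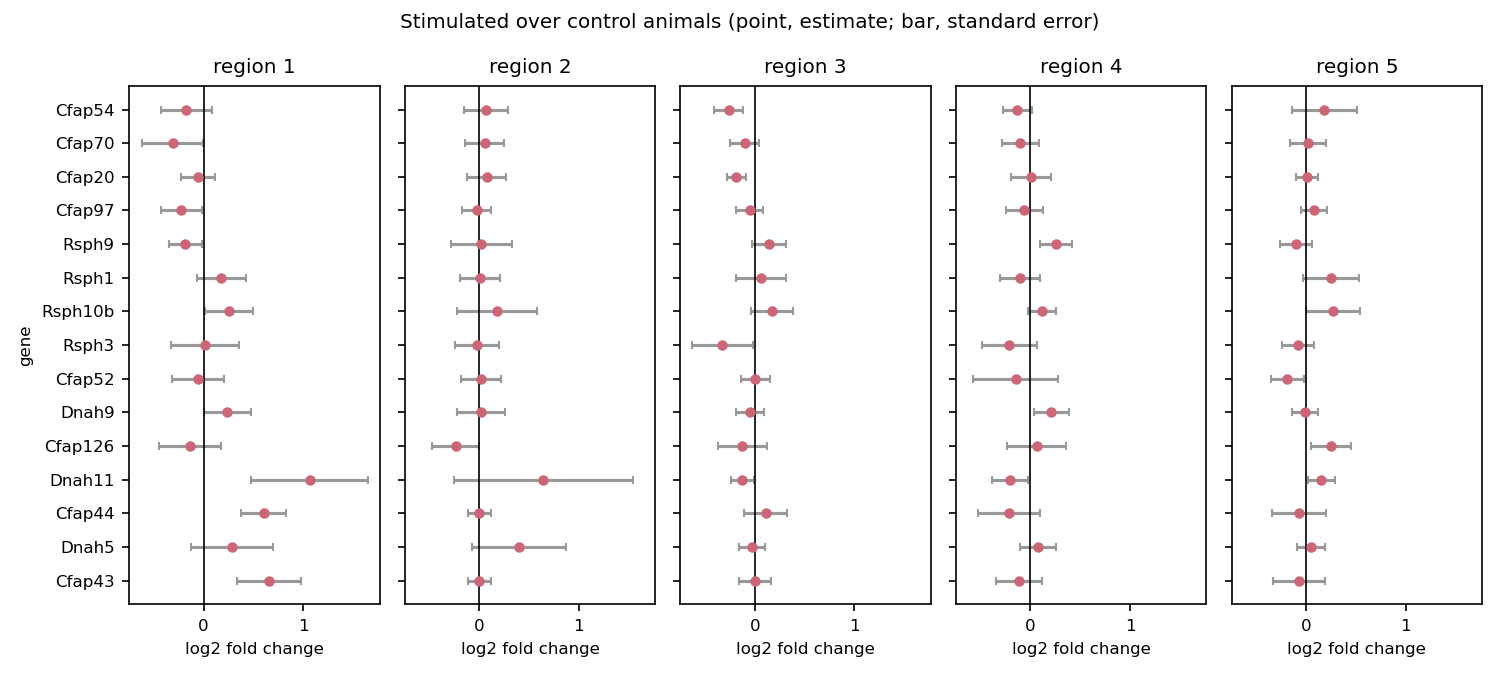
Log2 fold change of stimulated over control animals with its standard error (horizontal axes) for the 15 genes tested (vertical axis) in each region, 2 animals per group. The widest estimate is that of Dnah11 in region 1 at 1.07, and no gene had a limma adjusted p under 0.05.

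Whether the stimulation effect differed between regions was tested on differences within each animal. Between regions 1 and 2 no gene of the 15 was called by limma and 0 had an unadjusted p under 0.05, with 0.0% of all genes called. The highest estimates were those of Cfap43 at 0.65 (SE 0.39) and Cfap44 at 0.60 (SE 0.34), both listed at 0.1 FPKM in most of these libraries, and Dnah11 had 0.42 (SE 0.38, adjusted p = 0.881, limma). Between white matter and cord there were also 0 calls and 0 with an unadjusted p under 0.05, and Dnah11 had the highest estimate, 0.91 (SE 0.73, adjusted p = 0.765, limma).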

How the data were processed

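The authors depleted ribosomal RNA, sequenced paired reads together, aligned them to Rnor6 with TopHat2 2.1.0 and estimated levels with Cufflinks 2.2.1, per the labels and methods. They deposited FPKM values per gene, listed at no less than 0.1, for 20 libraries, and 0 columns were without a sample. FPKM values keep no read numbers per gene, so errors rest on how far the libraries differ. In the tissue and region fits these libraries include several regions of the same animal. The main fits treat them as independent, so their SEs and p-values do not allow for this pairing. The annotation version is not given in the sources used here, so positions are those of RefSeq on GRCr8, for promoters and overlaps only.

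FPKM values were log2-transformed and 15210 genes with at least 1 FPKM in any library were kept. A linear model was fitted in limma 3.58.1 under R 4.3.3, using an intensity trend in eBayes, to all 20 libraries with a mean per region for tissues and regions, to the 4 libraries of a region for stimulation, and to differences within animals for the difference of effects. Benjamini-Hochberg adjustment ran over every gene tested, threshold 0.05. Scripts were tested on simulated data. Other steps used Python 3.11.15, pandas 2.3.3 and matplotlib 3.10.9.

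The genes and lists were chosen with earlier results of these data known. Genes named with values were, by rule, the highest of each family, up to 4 in each direction per contrast of regions among those called with a mean of at least 1 FPKM on a side, for stimulation the 3 with the smallest p and at least 1 FPKM in a group, and up to 3 of each list. Others are named as examples chosen after their values were seen. Foxj1 was not analysed here, and the planned likeness to it could not be computed.

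Regions of the same animal are paired by the animal. The correlation of their deviations from region means, taken over both groups, was 0.651 for regions 1 and 2 and 0.229 for 3 and 4. For regions 4 and 5 it was -0.0026, and for 3 and 5 it was 0.0779. Alternatives were log2(FPKM + 1), no filter, at least 1 FPKM in at least 2 libraries, quantile normalization, upper-quartile scaling, eBayes without trend, blocks, a mean per region and group, all 20 libraries for stimulation, and leaving out each animal.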

Additional observations from a re-analysis of the deposited data

Results flagged for a closer look

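Of 75 groups of 4 libraries (15 genes in 5 regions), 2 held a library far from the other 3, and chance alone flags about 1 in 20 groups. Both were the region 1 library of stimulated animal 2. Cfap54 had 0.904 FPKM there and 1.22 to 1.28 FPKM in the other libraries of the region. Cfap97 had 3.09 FPKM there and 4.11 to 4.18 FPKM in the others. The same library had the highest microglia and macrophage marker sum of region 1, 448 FPKM, and the part of that difference in these values was not tested.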

How the results depend on the processing

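With no filter, 30 genes could be tested and 17 were lower and 6 higher in white matter than in cord, because more genes were tested. Under the other alternatives the tissue counts stayed within 1.5 times the reported 9 and 3, with 6 lower under quantile normalization, 7 with at least 1 FPKM in at least 2 libraries, and 8 to 9 lower and 2 to 3 higher over the left-out animals. Counts between single regions were of 0 to 2 genes and moved with most settings, and the cause was not tested. Region 1 against 2 gave 1 lower gene under quantile normalization and 0 to 2 higher genes over the left-out animals. Region 3 against 4 gave 1 higher gene with no filter and under quantile normalization, 2 lower genes with no filter, 1 lower gene on the log2(FPKM + 1) scale, under upper-quartile scaling and without a trend, and 0 to 2 lower over the left-out animals. Region 4 against 5 gave 1 higher gene under upper-quartile scaling and 0 to 2 over the left-out animals. Region 3 against 5 gave 0 higher genes on the log2(FPKM + 1) scale, with no filter and with a mean per region and group, 2 under quantile normalization, upper-quartile scaling and without a trend, and 0 to 2 over the left-out animals. Stimulation in region 1 gave 0 to 1 higher gene over the left-out animals. Among the genes named for stimulation, uncalled log2 fold changes changed sign, in region 2 for Cfap20 (-0.029 under quantile normalization, -0.033 under upper-quartile scaling, and -0.17 to 0.31 over the left-out animals, lowest without control animal 2), Cfap54 (-0.16 and -0.036 under those scalings, and -0.085 to 0.23 over the left-out animals, below 0 without control animal 2 or stimulated animal 1) and Cfap70 (-0.18 and -0.054, and -0.079 to 0.18, below 0 without stimulated animal 1), and in region 4 for Rsph3 (-0.53 to 0.11, above 0 without stimulated animal 2). The tissue differences of Rsph1, Rsph9 and Cfap97, also uncalled, changed sign under scalings or left-out animals. With the animal as a replicate block, 9 genes were lower and 3 higher in white matter, 1 was called between regions 1 and 2 and 1 between regions 3 and 5, as reported. The replicate numbers of stimulated and control animals name different animals, whose deviations correlated at -0.196, -0.201, -0.106, 0.382 and -0.245 in regions 1 to 5, and with the number as a replicate block 0 genes were called for stimulation in every region. A crossed pairing, chosen after seeing the data, also called 0. With 2 animals a group and no read numbers per gene, low levels near 0.1 FPKM and moderate differences could not be resolved.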

Other observations

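The table used older symbols for some genes of the same families. Of 43 current RefSeq symbols of the families that the table did not use, 20 were found under an older name. Of these 10 reached 1 FPKM in some library, and 7 were lower and 3 higher in white matter than in cord by limma, where 47.1% of all genes tested were lower and 25.0% higher. Ccdc104, now Cfap36, was the highest, with 30.1 to 44.7 FPKM in white matter and 38.3 to 57.1 FPKM in cord. RGD1309594, now Cfap410, had 6.64 to 8.83 FPKM in white matter and 11.9 to 20.1 FPKM in cord, without overlap. Fam183b, now Cfap144, had 0.157 to 0.420 and 0.728 to 1.72 FPKM, again without overlap, and reached 1 FPKM in the cord only. RGD1308544, now Cfap90, was the other way round, with 2.80 to 4.77 FPKM in white matter and 0.823 to 2.08 FPKM in cord. These genes were chosen after their values were seen and were not part of the counts above.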
